A study of Mus musculus with 24 samples.

Results

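The genes described here encode 10 secreted proteins of the acute phase and of innate defence: Ltf, Lcn2, Chi3l1, Saa1, Saa2, Saa3, Hp, Cp, Clu and C3. They were measured in HC11 cells, a mouse mammary epithelial line, in which levels of the noncoding RNA mPINC had been lowered or raised. The members were the non-control array probes whose RefSeq accession belongs to one of these genes. This gave 11 probes of 10 genes among 55681 probes, of which 26582 could be paired with a symbol of 20145 genes. C3 had 2 probes and every other gene had 1, and each gene stands by its brightest probe.

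Acute phase proteins are secreted in bulk by the liver during infection or injury, chiefly under interleukin 6, interleukin 1 and glucocorticoids acting through STAT3, C/EBP and NF-kB factors. Many of the same genes are also active in epithelia, and the mammary gland releases several of their products into milk, most of all around involution and in mastitis. Lactoferrin (Ltf) is an iron-binding antimicrobial protein of milk, and lipocalin 2 (Lcn2) withholds iron by binding bacterial siderophores. Serum amyloid A proteins (Saa1, Saa2 and Saa3) bind lipid, haptoglobin (Hp) binds free haemoglobin, ceruloplasmin (Cp) is a copper-carrying ferroxidase, clusterin (Clu) is an extracellular chaperone, C3 is the central complement component, and Chi3l1 is a chitin-binding lectin without enzyme activity.

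The study profiled 24 cultures on 1-colour arrays to find genes that respond to mPINC during lactogenic differentiation. Undifferentiated cells (−LH, without lactogenic hormones) carried siNEG, a negative control siRNA, or siPINC1.0/1.6, a pair of siRNAs that reaches 2 splice forms of mPINC but not DCR2, or siPINC, a pair that also reaches the DCR2 forms, at 10 nM and with n = 2 cultures each. Cells differentiated with hydrocortisone, insulin and prolactin (+LH) carried the same siRNAs or were lentivirus lines, with n = 3 cultures each. The siRNA pairs have 1 siRNA in common, per the paper. The virus LeGO-GFP was the control, and LeGO-DCR carried a deletion mutant without the conserved regions. The LeGO-1.0/1.6 cells overexpressed both mPINC1.0 and mPINC1.6, for which the methods list separate vectors. Transduced cells were expanded and frozen before the experiments, per the methods. Whether the cultures of a lentivirus group came from separate transductions is not stated, so their spread may be that of cultures of a single line. The hormone exposure before array profiling is not given in the sources used here.

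Signals are given as log2 intensities after quantile normalization over the 24 arrays, and a difference was called at a Benjamini-Hochberg adjusted p under 0.05 over all probes (limma). A probe was well above background where the scanner software marked it so. Between 24021 and 35798 probes per array were well above background, with the highest number in 1 of the LeGO-1.0/1.6 cultures. Of the 3 slides used, slide 1 held all −LH arrays with siNEG +LH replicate 1 and LeGO-GFP replicate 1, slide 2 the other siRNA arrays and slide 3 the other lentivirus arrays. The mPINC probe was lower with siPINC1.0/1.6 than with siNEG in −LH cells, by a log2 difference of -1.11 (SE 0.11, adjusted p = 0.0366), and by -1.17 with siPINC (adjusted p = 0.147). It was 7.37 higher in LeGO-1.0/1.6 than in LeGO-GFP cells and not different in LeGO-DCR cells (-0.01), whose transcript may lack the probed part. By qPCR the paper found mPINC transcript overexpressed in both lines. In +LH cells the mPINC probe was not called lower in the cultures labelled siPINC1.0/1.6 (0.19, adjusted p = 0.713) or siPINC (-0.50, adjusted p = 0.428). In siNEG cells its mean was 7.44 without and 4.87 with hormones. With hormones it was well above background on 2 of 3 siNEG, 2 of 3 siPINC1.0/1.6 and 1 of 3 siPINC arrays. So near background, this probe did not show the knockdown after hormones and could show little of it. All 6 epithelial markers were well above background on every array, and all 4 hepatocyte markers (Alb, Apoa1, Ttr and Ahsg) were on none. Of 8 leukocyte markers measured, 4 or 5 were well above background on every array of a group, and the pan-leukocyte gene Ptprc, with group means between 2.77 and 4.02, on at most 2 arrays of a group.

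Lactoferrin lies on chromosome 9 (GRCm38.p6, 111019292 to 111042766) and Lcn2 on chromosome 2 (32384637 to 32387739). The 3 serum amyloid genes are neighbours on chromosome 7, Saa3 at 46711998 to 46719615, Saa1 at 46740497 to 46743181 and Saa2 at 46751833 to 46754313. Chi3l1 is on chromosome 1 (134182156 to 134190031), Cp on chromosome 3 (19956933 to 20009750), Hp on chromosome 8 (109575128 to 109579172), Clu on chromosome 14 (65968483 to 65981548) and C3 on chromosome 17 (57203967 to 57228136). RefSeq promoter windows of 300 bases around a transcription start (build GRCm38.p6) were found for Ltf, Lcn2, Chi3l1, Saa1, Saa2, Saa3, Cp and C3, with 2 for Cp, and Clu and Hp were not in the table. They were searched on both strands for 4 motifs. The C/EBP motif TTGCNNAA occurred in 10.8% of all 32851 promoters, and in those of Ltf, Lcn2, Saa1, Saa2, Saa3, C3 and 1 of the 2 of Cp. The NF-kB motif, in 4.51% of all promoters, occurred in that of Chi3l1. The STAT motif TTCNNNGAA (8.3% of all promoters) and the palindromic glucocorticoid receptor motif (0.475%) had no match in these windows.

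The promoters of Ltf and Saa3, the genes with the largest fall and the largest rise with mPINC overexpression, of Saa1 and Saa2, the neighbours of Saa3, and of Lcn2, which like Ltf sequesters iron, are printed 5′ to 3′ on the gene's strand, with the C/EBP match in capitals. In Ltf and Saa3 the match is on the opposite strand and the capitals show its complement.
Ltf (chr9:111019042-111019341, plus strand): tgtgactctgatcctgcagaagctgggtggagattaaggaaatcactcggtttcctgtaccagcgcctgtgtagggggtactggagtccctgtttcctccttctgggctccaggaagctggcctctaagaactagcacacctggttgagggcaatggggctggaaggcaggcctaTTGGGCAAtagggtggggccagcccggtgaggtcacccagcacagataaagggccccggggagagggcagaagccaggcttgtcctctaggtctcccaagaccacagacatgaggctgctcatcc
Lcn2 (chr2:32387690-32387989, minus strand): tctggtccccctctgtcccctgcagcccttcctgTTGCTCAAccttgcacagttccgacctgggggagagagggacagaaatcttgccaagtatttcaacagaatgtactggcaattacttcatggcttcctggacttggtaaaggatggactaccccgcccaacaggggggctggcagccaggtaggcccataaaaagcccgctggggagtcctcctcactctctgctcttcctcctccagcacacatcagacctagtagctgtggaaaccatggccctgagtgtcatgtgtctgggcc
Saa1 (chr7:46742931-46743230, minus strand): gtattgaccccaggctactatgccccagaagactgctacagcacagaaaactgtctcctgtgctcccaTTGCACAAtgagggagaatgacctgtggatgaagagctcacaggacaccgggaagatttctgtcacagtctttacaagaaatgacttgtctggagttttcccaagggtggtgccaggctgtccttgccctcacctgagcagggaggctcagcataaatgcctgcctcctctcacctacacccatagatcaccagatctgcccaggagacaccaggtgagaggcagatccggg
Saa2 (chr7:46751583-46751882, plus strand): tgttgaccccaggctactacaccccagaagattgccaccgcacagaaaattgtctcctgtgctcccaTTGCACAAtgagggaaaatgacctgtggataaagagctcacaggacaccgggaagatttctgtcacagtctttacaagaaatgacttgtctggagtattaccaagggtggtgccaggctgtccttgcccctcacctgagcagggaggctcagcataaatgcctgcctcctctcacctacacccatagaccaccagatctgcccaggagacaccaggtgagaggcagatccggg
Saa3 (chr7:46715627-46715926, minus strand): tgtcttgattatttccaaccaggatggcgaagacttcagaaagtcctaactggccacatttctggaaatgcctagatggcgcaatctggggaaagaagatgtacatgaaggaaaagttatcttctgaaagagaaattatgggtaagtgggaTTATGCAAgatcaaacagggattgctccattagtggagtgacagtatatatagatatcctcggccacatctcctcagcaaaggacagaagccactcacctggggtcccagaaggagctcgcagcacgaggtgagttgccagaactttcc
The windows of Saa1 and Saa2, which point away from each other on the chromosome, were identical at 287 of 301 aligned positions (95.3%), with the C/EBP match 182 to 175 bases before the Saa1 start and 183 to 176 bases before that of Saa2. Saa3 matched Saa1 at 54.2% and Saa2 at 53.4% of aligned positions. Whether the Saa1 and Saa2 probes also bind each other's transcript was not tested.

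**Figure D1:**
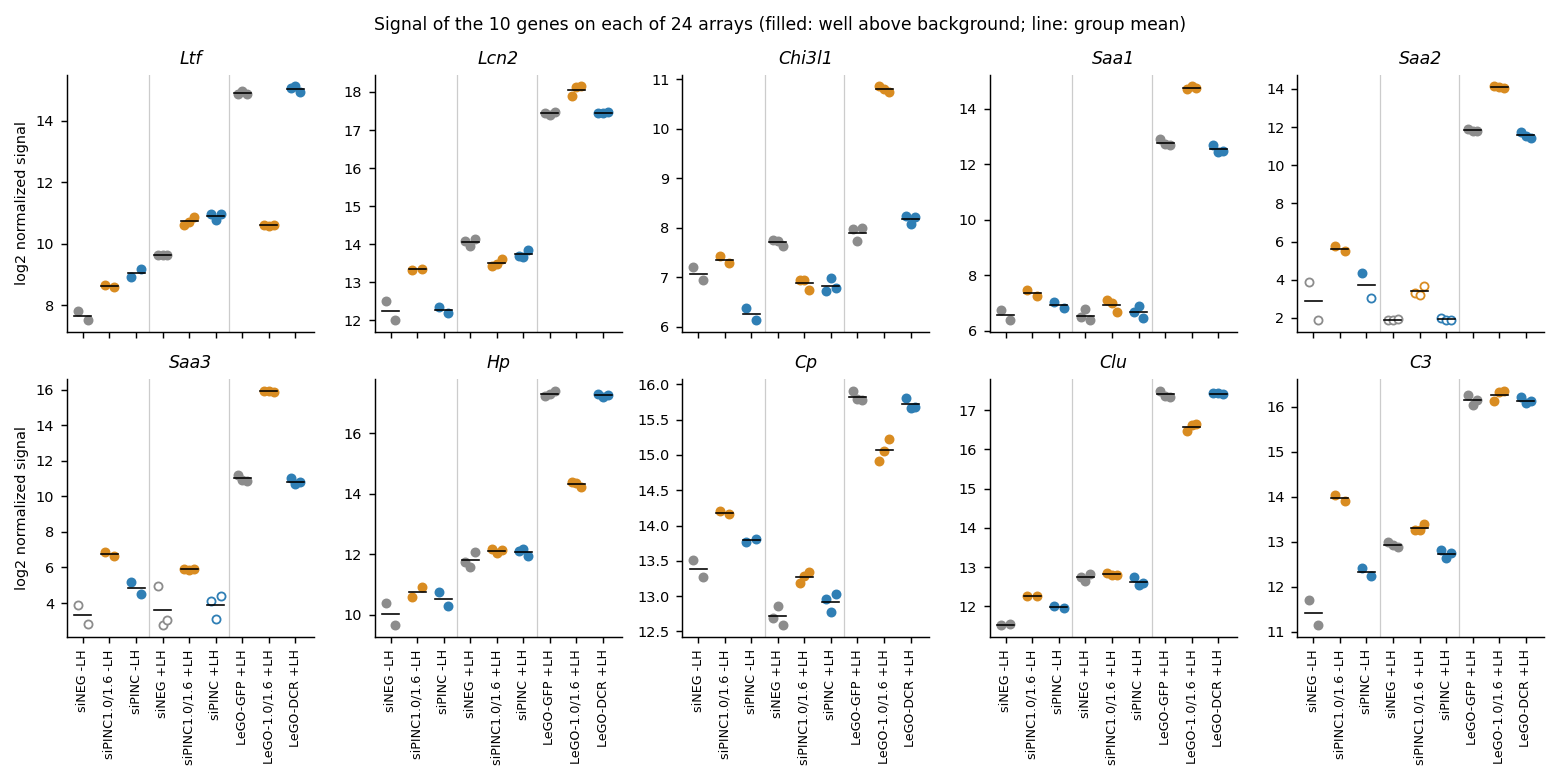
Log2 normalized signal (y axis, scaled by gene) of the 10 genes on each array, by group (x axis, −LH siRNA, +LH siRNA and +LH lentivirus groups from left to right). Each point is 1 array, open where the probe was not well above background, and lines are group means. Apart from Chi3l1, every gene lies higher in all 9 lentivirus arrays than in all 15 siRNA arrays except Ltf in LeGO-1.0/1.6 cells.

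The first comparison set +LH against −LH siNEG cells, and "hormones" stands for this whole contrast. Per the methods, prolactin and hydrocortisone are added in a priming medium that lacks the EGF and calf serum of growth medium. Insulin is in both media. The medium of the −LH array cultures is not stated, so medium and time in culture cannot be told apart from the hormones. Hormones raised 6 of the 10 genes, Ltf, Lcn2, Hp, C3, Clu and Chi3l1, by 1.55-fold to 3.94-fold, and lowered Cp. The 3 serum amyloid genes did not pass the test. Of all probes 27.1% were called, 13.5% of them upward, and of the bright probes, which passed the background mark throughout 1 or more of the groups compared, 55.9% were called, 27.8% upward. A count of 7 of 10 is therefore not far above the share among bright probes. The median log2 difference of the 10 genes was 0.92, against 0.01 over all probes.

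Lactoferrin read 7.81 and 7.51 in the siNEG −LH cultures and 9.64, 9.63 and 9.65 in the siNEG +LH cultures. All +LH values lay above both −LH values, and the difference was 3.94-fold (log2 1.98, SE 0.12, adjusted p = 3.23e-07). Lcn2 read 12.50 and 11.998 without and 14.08, 13.95 and 14.12 with hormones, a 3.49-fold rise (log2 1.8, SE 0.13, adjusted p = 1.5e-06). Thus both iron-sequestering genes rose in each hormone-treated culture. Haptoglobin, at 10.39 and 9.67 before and 11.75, 11.59 and 12.09 after, rose 3.44-fold (log2 1.78, SE 0.22, adjusted p = 0.000115). Its −LH cultures were the farthest apart of any group well above background (SD 0.51).

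C3 read 11.71 and 11.15 in −LH and 12.99, 12.94 and 12.89 in +LH cells, a 2.84-fold rise (log2 1.51, SE 0.14, adjusted p = 8.85e-06). Clusterin read 11.53 and 11.55 against 12.75, 12.64 and 12.83, a 2.30-fold rise (log2 1.2, SE 0.07, adjusted p = 3.91e-07). For both the groups did not overlap. Chi3l1 rose 1.55-fold (log2 0.63, SE 0.12, adjusted p = 0.00166). Ceruloplasmin went the other way, from 13.51 and 13.27 to 12.69, 12.85 and 12.59, a 1.6-fold fall (log2 -0.67, SE 0.11, adjusted p = 0.000562).

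Saa1 stood at 6.74 and 6.37 without and 6.49, 6.76 and 6.37 with hormones, and the groups overlapped (log2 difference -0.01, SE 0.19). Saa2 and Saa3 were below that mark on every siNEG array, so no fold is given for them. Slide 1 alone holds both −LH cultures and 1 +LH culture, so the spread there comes from the −LH groups and the lone +LH culture is assumed to vary like them. Under that assumption 5 of the 7 calls were kept, and Hp (log2 1.73, adjusted p = 0.051) and Chi3l1 (log2 0.67, adjusted p = 0.0678) did not pass.

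Overexpression of mPINC in hormone-treated cells split the genes into opposite responses. Saa3, Chi3l1, Saa2, Saa1 and Lcn2 were higher in LeGO-1.0/1.6 than in LeGO-GFP cells, Ltf, Hp, Clu and Cp were lower, and C3 was not called. This is 9 of 10 genes, where 30.3% of all probes and 59.8% of the bright probes were called. The median absolute log2 difference was 2.13 for the 10 genes and 0.33 over all probes, which include probes not well above background. The genes were chosen with earlier results of these data known, so this gap is a description.

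Saa3, a serum amyloid gene expressed mainly outside the liver, read 11.22, 10.93 and 10.88 in LeGO-GFP, 11.004, 10.69 and 10.78 in LeGO-DCR and 15.89, 15.92 and 15.87 in LeGO-1.0/1.6 cells. The LeGO-1.0/1.6 cultures lay far above both others, with a 29.6-fold difference from LeGO-GFP (log2 4.89, SE 0.11, adjusted p = 2.13e-07). Saa2 read 11.88, 11.80 and 11.78 in LeGO-GFP and 14.14, 14.08 and 14.05 in LeGO-1.0/1.6 cells, a 4.82-fold rise (log2 2.27, SE 0.09, adjusted p = 1.67e-06). Saa1 read 12.91, 12.71 and 12.68 against 14.72, 14.81 and 14.76, a 3.98-fold rise (log2 1.99, SE 0.09, adjusted p = 3.69e-06). All 3 serum amyloid genes therefore rose without overlap between the groups. Chi3l1 read 7.97, 7.73 and 7.99 in LeGO-GFP and 10.86, 10.81 and 10.73 in LeGO-1.0/1.6 cells, a 7.46-fold rise (log2 2.90, SE 0.09, adjusted p = 6e-07). Lcn2 read 17.45, 17.38 and 17.47 against 17.90, 18.14 and 18.15, a smaller rise of 1.54-fold (log2 0.63, SE 0.08, adjusted p = 0.000503).

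Lactoferrin read 14.88, 14.97 and 14.88 in LeGO-GFP, 15.07, 15.12 and 14.92 in LeGO-DCR and 10.63, 10.59 and 10.60 in LeGO-1.0/1.6 cells. Its fall of 19.8-fold (log2 -4.31, SE 0.06, adjusted p = 4.93e-08) was the largest among the 10 genes. Haptoglobin read 17.23, 17.29 and 17.40 in LeGO-GFP and 14.37, 14.36 and 14.23 in LeGO-1.0/1.6 cells, a 7.90-fold fall (log2 -2.98, SE 0.07, adjusted p = 1.86e-07). Clusterin read 17.49, 17.37 and 17.34 against 16.46, 16.62 and 16.65 (1.77-fold lower, log2 -0.83, SE 0.07, adjusted p = 6.81e-05). Ceruloplasmin read 15.91, 15.80 and 15.78 against 14.92, 15.05 and 15.23 (1.69-fold lower, log2 -0.76, SE 0.09, adjusted p = 0.000453). In all 4 genes every LeGO-1.0/1.6 array lay below those of both other lines.

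C3 read 16.27, 16.05 and 16.16 in LeGO-GFP and 16.12, 16.33 and 16.35 in LeGO-1.0/1.6 cells. The groups overlapped, with a log2 difference of 0.11 and a 95% interval from -0.09 to 0.32. Its other probe differed by 0.15 (adjusted p = 0.18).

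**Figure D2:**
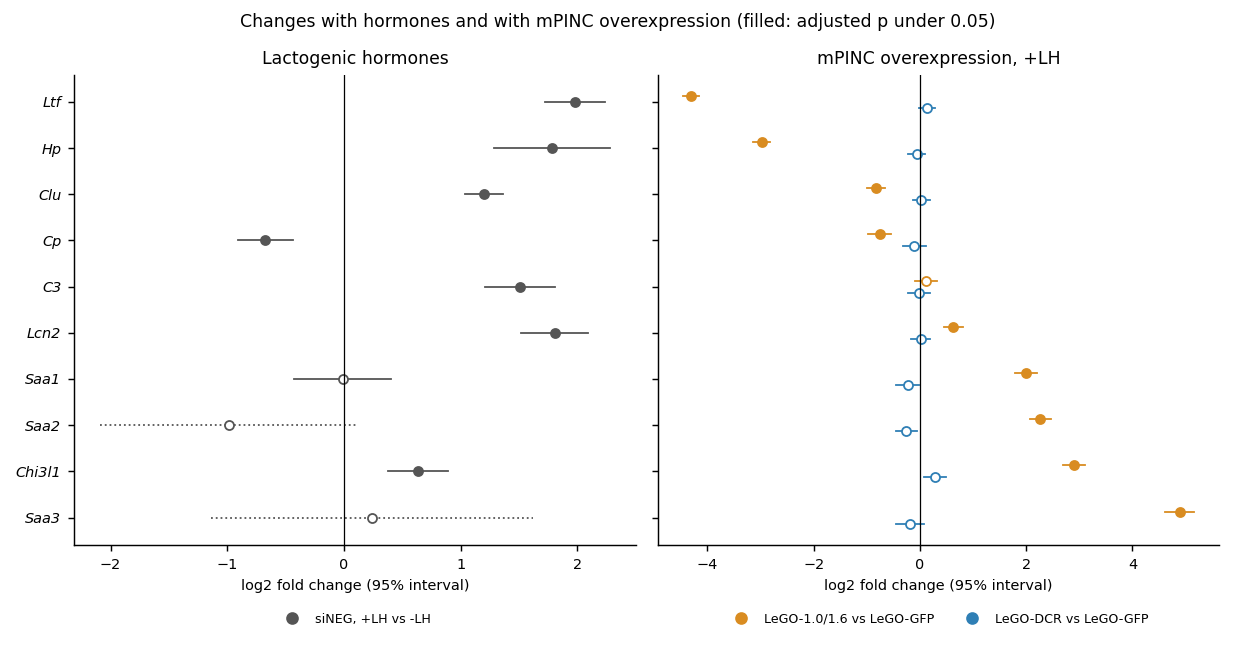
Log2 fold change with its 95% interval (x axis) of each gene (y axis) for hormones in siNEG cells (left) and for the lentivirus lines LeGO-DCR and LeGO-1.0/1.6 against LeGO-GFP (right). Points are filled at an adjusted p under 0.05, and dotted intervals mark genes not well above background in a group. Ltf, Hp and Clu lie to the right on the left panel and to the left for LeGO-1.0/1.6, and all LeGO-DCR points lie between -0.26 and 0.27.

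The deletion mutant did not give these changes. None of the 10 genes was called between LeGO-DCR and LeGO-GFP cells, where 0.0736% of all probes were called. Of the 10 genes 3 had an unadjusted p under 0.05, against 4.52% of all probes. The widest of these differences were those of Chi3l1 (0.27, SE 0.09, adjusted p = 0.869) and Saa2 (-0.26, SE 0.09, adjusted p = 0.938), and the 95% intervals of all 10 genes lay between -0.46 and 0.48. The 9 genes called against LeGO-GFP were also called against LeGO-DCR, where 29.7% of all and 59.2% of bright probes were called. The log2 differences of LeGO-1.0/1.6 from LeGO-DCR were 5.07 for Saa3, -4.44 for Ltf, -2.92 for Hp and 2.62 for Chi3l1. Both comparisons share the LeGO-1.0/1.6 arrays. The 9 calls against LeGO-GFP were kept without LeGO-GFP replicate 1, the array on another slide, with -4.32 for Ltf and 4.99 for Saa3.

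Knockdown with siPINC1.0/1.6 in undifferentiated cells raised C3, Saa3, Cp and Clu. The other 6 genes were not called, while all 10 differences from siNEG were above 0. The 4 calls of 10 compare with 2.96% of all probes called, 1.52% upward, and with 17.7% of the bright probes, 9.24% upward. The median log2 difference was 0.89, against -0.01 over all probes. With n = 2 these calls rested on every array: leaving out 1 array at a time left 0 or 1 of the 10 genes called.

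C3 read 11.71 and 11.15 in siNEG, 14.03 and 13.91 in siPINC1.0/1.6 and 12.41 and 12.25 in siPINC cells. The siPINC1.0/1.6 cultures were the highest, 5.82-fold above siNEG (log2 2.54, SE 0.21, adjusted p = 0.0328), and the other C3 probe gave 2.35 (adjusted p = 0.0316). The call of C3 was kept without siNEG replicate 1 and lost without any of the other 5 arrays, with log2 differences from 2.26 to 2.82. Saa3 read 6.88 and 6.66 with siPINC1.0/1.6, and 3.87 and 2.83 with siNEG, where it was not well above background. It was at least 6.50-fold higher with siPINC1.0/1.6 (adjusted p = 0.0497). Clusterin, at 11.53 and 11.55 in siNEG and 12.27 and 12.26 in siPINC1.0/1.6 cells, rose 1.66-fold (log2 0.73, SE 0.05, adjusted p = 0.0291). Ceruloplasmin, at 13.51 and 13.27 against 14.21 and 14.16, rose 1.73-fold (log2 0.79, SE 0.10, adjusted p = 0.0479).

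Among the genes not called, Lcn2 read 13.32 and 13.36 with siPINC1.0/1.6 and 12.50 and 11.998 with siNEG. Ltf read 8.67 and 8.6 against 7.81 and 7.51. Their log2 differences were 1.09 for Lcn2 (adjusted p = 0.0748) and 0.98 for Ltf (adjusted p = 0.0615). Saa2 was well above background on both siPINC1.0/1.6 arrays (5.75 and 5.5) and on neither siNEG array, a difference of at least 2.93-fold that was not called (adjusted p = 0.197). Saa1 (0.81, adjusted p = 0.108), Hp (0.73, adjusted p = 0.361) and Chi3l1 (0.28, adjusted p = 0.437) had smaller differences relative to their error.

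With siPINC in the same cells 0 of the 10 genes were called by limma, as 0 of all probes were, while 6 of 10 had an unadjusted p under 0.05, 5 higher and 1 lower, against 9.68% of all probes. Lactoferrin (8.92 and 9.18) had the largest difference among the genes measured in both groups, 1.39 (SE 0.15, adjusted p = 0.17). Chi3l1 (6.38 and 6.12 against 7.19 and 6.94 in siNEG) was the 1 gene below, at -0.81 (SE 0.15, adjusted p = 0.27). Between the siRNA pairs, 0 of 10 genes were called by limma, against 0.018% of all and 4.57% of bright probes. At an unadjusted p under 0.05 were 7 of 10, 6 higher and 1 lower with siPINC1.0/1.6, against 14.2% of all probes. Among these 7 the differences of siPINC1.0/1.6 from siPINC were widest for Saa3, at 1.90 (95% interval 0.67 to 3.13), and C3, at 1.64 (95% interval 1.05 to 2.22), followed by Chi3l1 (1.09) and Lcn2 (1.06). Lactoferrin went the other way, at -0.41 (95% interval -0.82 to -0.0035).

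In hormone-treated cells the cultures labelled siPINC1.0/1.6 differed from siNEG in both directions. Ltf, Cp and C3 were higher, and Chi3l1 and Lcn2 were lower. Saa2 was also called, but was below the background mark throughout both groups, so no fold is given. These 6 calls of 10 compare with 3.84% of all probes and 15.7% of the bright probes. The changes were mostly small, with a median absolute log2 difference of 0.55 against 0.17 over all probes.

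Lactoferrin read 9.64, 9.63 and 9.65 with siNEG, 10.62, 10.70 and 10.89 with siPINC1.0/1.6 and 10.97, 10.77 and 10.98 with siPINC. Both knockdowns lay wholly above siNEG, by 2.14-fold for siPINC1.0/1.6 (log2 1.1, SE 0.09, adjusted p = 0.00122) and 2.41-fold for siPINC (log2 1.27, SE 0.09, adjusted p = 0.00573), and they overlapped each other. Chi3l1 read 7.74, 7.73 and 7.63 with siNEG, 6.95, 6.94 and 6.74 with siPINC1.0/1.6 and 6.72, 6.98 and 6.78 with siPINC. It was lower by 1.77-fold (log2 -0.82, SE 0.09, adjusted p = 0.00425) and 1.83-fold (log2 -0.87, SE 0.09, adjusted p = 0.0152). Ltf and Chi3l1 were thus the only genes of the 10 called with both siRNA pairs in +LH cells. The pairs share the siNEG arrays as their control and 1 siRNA, so they are not independent of each other. Without siNEG replicate 1, which lay on another slide, the call of Chi3l1 with siPINC was lost (-0.85, adjusted p = 0.0616) and that of Ltf was kept (1.27, adjusted p = 0.0259).

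Lcn2 read 14.08, 13.95 and 14.12 with siNEG and 13.44, 13.47 and 13.60 with siPINC1.0/1.6, a 1.46-fold fall (log2 -0.55, SE 0.08, adjusted p = 0.0119). Ceruloplasmin read 12.69, 12.85 and 12.59 against 13.18, 13.29 and 13.34, a 1.47-fold rise (log2 0.56, SE 0.10, adjusted p = 0.0267). C3 read 12.99, 12.94 and 12.89 against 13.27, 13.25 and 13.39 (1.29-fold higher, log2 0.37, SE 0.07, adjusted p = 0.032). The groups of these 3 genes did not overlap, but the other C3 probe differed by 0.22 and was not called (adjusted p = 0.18). Saa3 was well above background on all siPINC1.0/1.6 arrays (5.94, 5.87 and 5.90) and on none of siNEG, at least 3.21-fold higher without being called (adjusted p = 0.107). For siPINC1.0/1.6 without siNEG replicate 1, Ltf (1.1), Chi3l1 (-0.80) and Saa2 stayed called, Saa3 was called, and Lcn2, Cp and C3 were not.

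With siPINC, 2 of the 10 genes were called, where 0.681% of all and 3.69% of bright probes were. The other differences of genes above background lay between -0.32 for Lcn2 and 0.27 for Hp. Between the siRNA pairs C3 was higher with siPINC1.0/1.6 (1.49-fold, log2 0.57, SE 0.07, adjusted p = 0.0167) and Saa2 was called below background. These are 2 of 10 genes, against 0.914% of all and 5.14% of bright probes. Neither pair gave a called change of Clu, Hp or Saa1 in +LH cells.

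**Figure D3:**
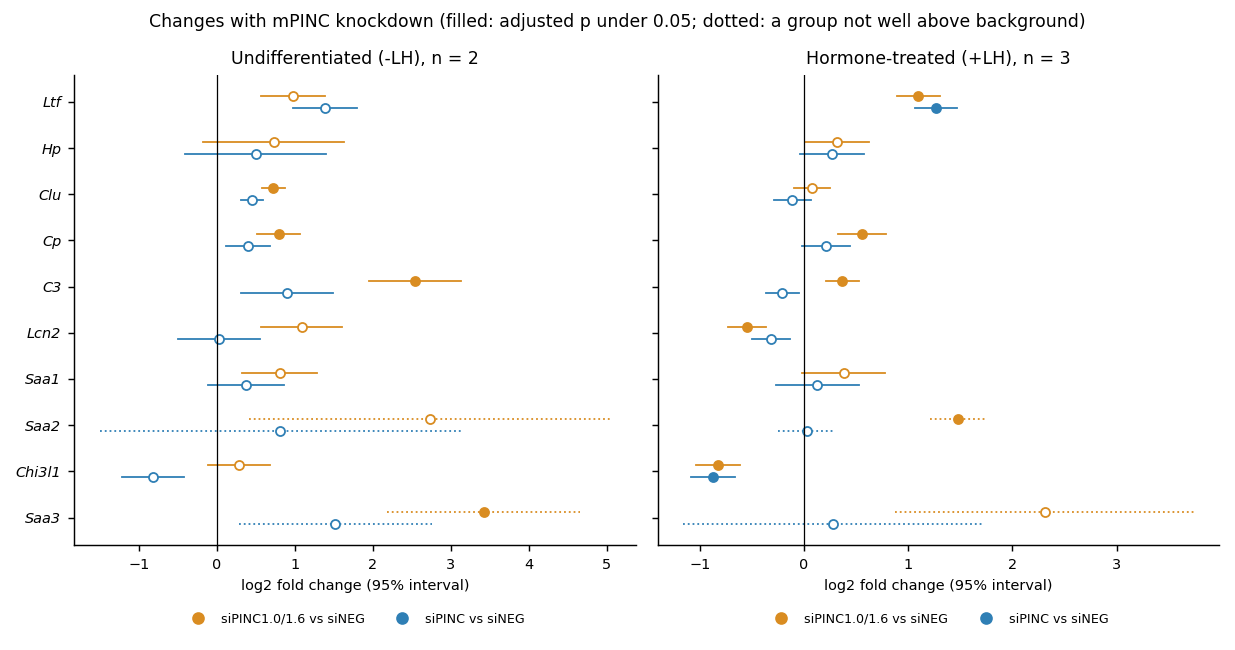
Log2 fold change with its 95% interval (x axis) of each gene (y axis) for siPINC1.0/1.6 and siPINC against siNEG, in −LH cells (left, n = 2 per group) and +LH cells (right, n = 3 per group). Points are filled at an adjusted p under 0.05 and intervals dotted where a group was not well above background. C3 lies at 2.54 on the left and 0.37 on the right for siPINC1.0/1.6, and Chi3l1 is lower with both siRNA pairs on the right.

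Whether the difference between knockdown and siNEG cells depended on hormones was tested by an interaction term over the 15 siRNA arrays. The mPINC probe did not show the knockdown in +LH cells, where it was near background and could show little of it. A smaller difference in +LH cells therefore cannot be told apart from a weaker knockdown there. For siPINC1.0/1.6, 4 of the 10 genes were called, C3, Lcn2, Chi3l1 and Clu, all with a smaller or opposite difference in +LH cells (3.19% of all probes were called and 1.11% downward, against 9.02% and 3.37% of the bright probes). For C3 the difference from siNEG was 2.54 in −LH and 0.37 in +LH cells (interaction -2.17, SE 0.19, adjusted p = 0.000266). For Lcn2 it turned from 1.09 to -0.55 (interaction -1.64, SE 0.18, adjusted p = 0.001). Chi3l1 went from 0.28 to -0.82 (interaction -1.11, SE 0.17, adjusted p = 0.00468), and Clu from 0.73 to 0.08 (interaction -0.65, SE 0.10, adjusted p = 0.0065). In contrast, the interaction for Ltf was 0.12 (SE 0.17, adjusted p = 0.874), with differences of 0.98 and 1.1.

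For siPINC 2 of 10 genes were called, where 0.503% of all and 1.5% of bright probes were. The interactions were -1.11 for C3 (SE 0.19, adjusted p = 0.0418) and -0.57 for Clu (SE 0.10, adjusted p = 0.0499). Without 1 of the 15 arrays at a time C3 stayed called in 3 cases and Clu in 1, whereas the 4 calls for siPINC1.0/1.6 were kept in all 25 alternatives.

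The levels over the 9 groups set the lentivirus lines apart. A comparison of LeGO-GFP with siNEG in +LH cells, added after the values were seen, found 9 of the 10 genes higher in LeGO-GFP cells (15.9% of all probes called, 6.57% higher, and 41.2% and 17.7% of the bright probes). The median log2 difference of the 10 genes was 4.97, against -0.01 over all probes. Hp was 45.1-fold (log2 5.5, SE 0.14), Ltf 38.6-fold (log2 5.27, SE 0.05), Clu 25.3-fold (log2 4.66, SE 0.08) and Saa1 74.8-fold higher (log2 6.23, SE 0.13). Saa2 and Saa3 were at least 194-fold and at least 111-fold higher. Chi3l1 differed by 0.20 (SE 0.09, adjusted p = 0.238), and its groups overlapped. Slide 1 alone has 1 array of each of these groups and so no spread within them. The differences there were 5.24 for Ltf and 5.48 for Hp. Virus, transfection, cell stock and experiment cannot be told apart in this comparison.

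Ordered by level, Ltf rose from siNEG through siPINC1.0/1.6 and siPINC in −LH cells to siNEG +LH, then to LeGO-1.0/1.6, siPINC1.0/1.6 and siPINC in +LH cells, whose neighbouring ranges overlap, and was highest in LeGO-GFP and LeGO-DCR, which also overlap. Its level in LeGO-1.0/1.6 cells (10.60 ± 0.02, SD, n = 3) was thus above that of siNEG +LH cells (9.64 ± 0.01, SD, n = 3). Hp had its lowest levels in the −LH groups, which overlap, then the +LH siRNA groups, which overlap, then LeGO-1.0/1.6 (14.32 ± 0.08, SD, n = 3), and its highest in LeGO-DCR and LeGO-GFP. For C3 no neighbouring siRNA groups overlapped in range, from siNEG −LH (11.43 ± 0.39, SD, n = 2) to siPINC1.0/1.6 −LH (13.97 ± 0.08, SD, n = 2), while the 3 lentivirus groups overlapped. Chi3l1 was lowest in siPINC −LH cells (6.25 ± 0.18, SD, n = 2) and highest in LeGO-1.0/1.6 cells (10.80 ± 0.06, SD, n = 3).

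Lists of related genes, each gene by its brightest probe, were counted in the same fits. Of 38 other acute phase and secreted defence genes, 10 rose and 9 fell with LeGO-1.0/1.6 relative to LeGO-GFP. This is 50% of the list, between the 30.3% of all probes and the 59.8% of bright probes called there. The calprotectin subunits S100a8 (log2 6.54, SE 0.11) and S100a9 (log2 6.4, SE 0.35) and the orosomucoid gene Orm3 (log2 6.00, SE 0.17) had the largest rises. With siPINC1.0/1.6 in −LH cells 6 were higher and 2 lower (21.1% of the list, against 2.96% of all and 17.7% of bright probes), among them Orm1 at 6.26-fold and S100a8 at 4.59-fold higher, and S100a9 at least 8.54-fold higher. Hormones raised 8 and lowered 5 (34.2%, against 27.1% of all and 55.9% of bright probes), with S100a8 at least 3.08-fold lower, and with Wfdc18, a whey acidic protein family gene, at 2.61 and Xdh, an enzyme of the milk fat droplet, at 2.06 on the log2 scale. Of 23 complement genes measured, 3 rose and 5 fell with LeGO-1.0/1.6, a share of 34.8% that is near that of all probes and below that of bright probes. The complement component C4b (log2 -3.47, SE 0.21) and the C1 inhibitor Serping1 (log2 -3.01, SE 0.15) were among those that fell.

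Of 34 genes of the IL-6, IL-1 and TNF signals and their relays, 19 rose and 9 fell with LeGO-1.0/1.6 relative to LeGO-GFP (82.4% of the list, against 30.3% of all and 59.8% of bright probes), with a median log2 difference of 0.83. Interleukin 1 alpha (Il1a) was at least 62.5-fold and the chemokine Ccl2 at least 91.5-fold higher. With siPINC1.0/1.6, 10 were higher and 2 lower in −LH cells (35.3%, against 2.96% of all and 17.7% of bright probes). In +LH cells 7 were higher and 1 lower (23.5%, against 3.84% and 15.7%), where Il6 was at least 2.75-fold higher (adjusted p = 0.0114). Hormones raised 10 and lowered 14 of the same list (70.6%, against 27.1% of all and 55.9% of bright probes). Il6 was at least 23.7-fold lower, the chemokine Cxcl5 9.59-fold lower and Socs3, a feedback inhibitor of cytokine signalling, 3.82-fold lower with hormones. Of 18 genes of the glucocorticoid, prolactin and STAT5 response, hormones raised 14 and lowered 1 (83.3%), with Tsc22d3 (log2 3.93, SE 0.07), a glucocorticoid-induced gene, and Csn2, the beta-casein gene, at least 117-fold higher. With LeGO-1.0/1.6, 3 rose and 13 fell (88.9%), including the alveolar regulator Elf5 (log2 -5.47, SE 0.14). Of 12 receptors of the 10 proteins, 5 were higher and 1 lower there, a share of 50% that is below that of bright probes. Il13ra2, a receptor of Chi3l1, was at least 14.0-fold higher, Cd44 6.32-fold higher and Slc22a17, a receptor of Lcn2, 4.72-fold lower. None of the 5 lists had a called gene between LeGO-DCR and LeGO-GFP cells.

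In the same comparison of LeGO-1.0/1.6 with LeGO-GFP, 30.3% of all and 59.8% of bright probes were called. There 5 of 6 epithelial markers were lower, including Krt5 (-2.76, SE 0.08) and Epcam (-1.06, SE 0.08). Of 8 leukocyte markers 2 were lower (Itgam and Cd3e) and none higher, a share of 25% that is below that of all probes. Of 3 fibroblast and adipocyte markers Pdgfra was higher (0.96, SE 0.08), Col1a1 was not called, and Adipoq was called below background. With hormones 27.1% of all and 55.9% of bright probes were called. Of the epithelial markers 3 were higher there, among them Krt18 (2.64-fold), and 2 lower, Krt5 (6.60-fold) and Krt14 (2.16-fold). On the log2 scale Pdgfra rose by 1.31 (SE 0.09) and Col1a1 fell by 2.94 (SE 0.10) there, and with siPINC1.0/1.6 in −LH cells both fell (-1.02 and -1.79). With siPINC1.0/1.6 in +LH cells Krt5 (0.59) and Krt14 (0.55) were higher and Krt18 (-0.56) and Pdgfra (-0.45) lower. In LeGO-GFP against siNEG cells Krt5 (0.72) and the endothelial marker Pecam1 (0.79) were higher, and Krt18 (-0.91), Krt8 (-0.64), Col1a1 (-1.63) and Pdgfra (-1.02) lower. There 1 of 8 leukocyte markers was higher (12.5%, against 15.9% of all and 41.2% of bright probes called). The part of cell composition in the changes of the 10 genes was not tested, and fewer cells of a kind cannot be told apart from less RNA per cell.

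**Figure D4:**
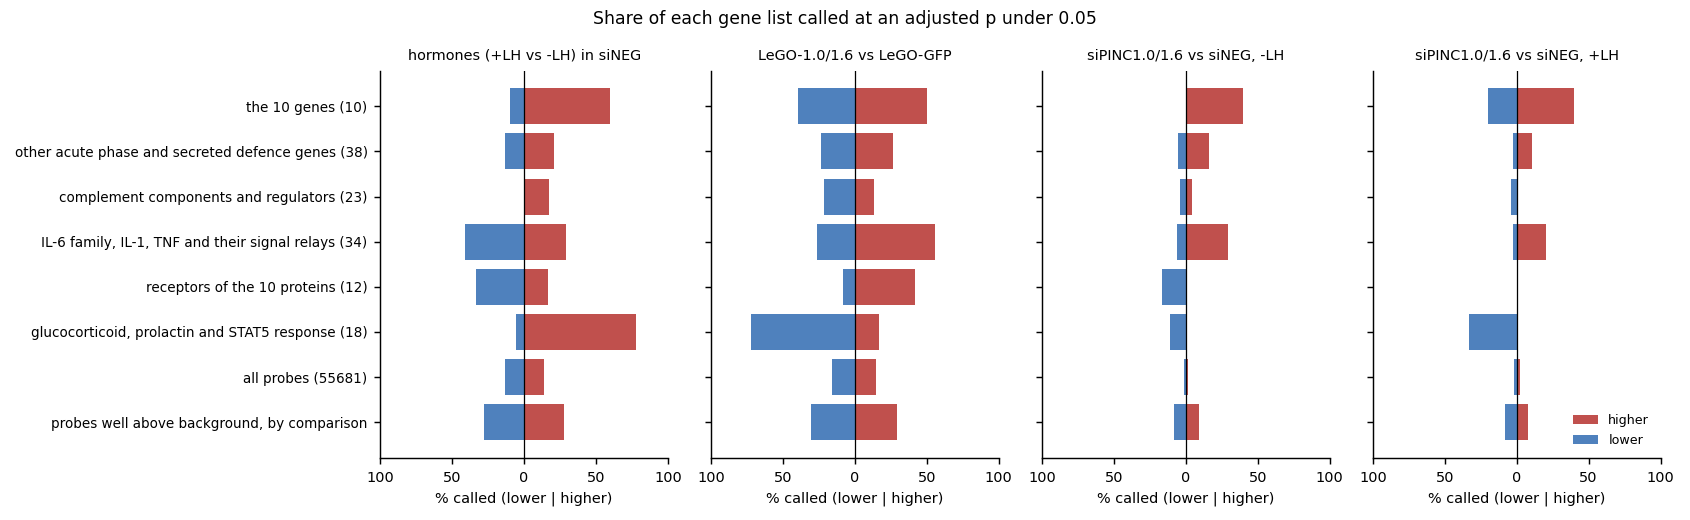
Percentage of each gene list (y axis, number of genes measured in brackets) called higher (right of 0) or lower (left of 0) at an adjusted p under 0.05, in 4 comparisons. The last 2 rows give the shares over all probes and over the bright probes. The 10 genes reach 90% in LeGO-1.0/1.6 cells, where 59.8% of the bright probes were called.

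The genes most like each member over the 24 arrays, by Pearson r of log2 signal, were Palmd (0.98) and F5 (0.98) for Ltf, Cdkn2b and Slc48a1 (both 0.99) for Lcn2, and Sftpd and Lbp (both 0.99) for Hp. For Saa1 they were Gda and Sema4f, for Saa2 Parp8 and Ccdc9b, and for Saa3 Gbp2 and Nfkbie, with r from 0.98 to 0.99. For Chi3l1 they were Fth1 and Rusc2 (both 0.97), for Cp Rnd3 (0.98) and Osgin1 (0.97), for Clu Rasgef1b (0.99) and Thbs1 (0.98), and for C3 Anxa3 and Cxcl16 (both 0.98). The arrays share groups, slides and the split between siRNA and lentivirus cells, so these values are a description.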

How the data were processed

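Total RNA of 24 HC11 cultures in 9 groups was hybridised to Agilent 1-colour arrays, 1 culture each. The authors deposited scanner output with 1 background-corrected intensity per spot, made by Agilent Feature Extraction 11.0.1.1 without scaling between arrays. They also deposited their quantile-normalized log2 table. Here the processed signals of the 59305 non-control spots were log2-transformed and quantile normalized over all arrays. Outlier spots were then dropped and the rest averaged into 55681 probes. No spot was saturated. The number of arrays per group limits the precision.

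Differences were fitted with limma (3.58.1, under R 4.3.3; functions lmFit, contrasts.fit and eBayes) using separate fits for the −LH, +LH siRNA and lentivirus arrays and 1 fit of the 15 siRNA arrays for hormones and interactions, adjusted by Benjamini-Hochberg over all probes. Beside shares of all probes, the text gives shares of bright probes, those above the background mark throughout 1 or more groups of the fit, fitted alone. A fold "at least" sets the bright group against the lowest signal well above background on each array of the dim group, or the dim probe's own signal where higher. Motif matches, counts and figures used Python 3.11.15, pandas 2.3.3, Biopython 1.88 and matplotlib 3.10.9. All 10 genes are named, and from each list at most 3 called genes per comparison, those with the largest change in either direction among bright probes. The members and lists were chosen with earlier results of these data known. The fits were tested on simulated data. Replicate numbers were not used to pair the samples. Correlations of same-numbered deviations lay between -0.32 and 0.15. In −LH cells they were small but all above 0, between 0.05 and 0.10. With n = 2 the deviations of a group mirror each other, so these values are not independent of one another. Different-numbered pairs of +LH siRNA arrays lay between -0.22 and 0.21.

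Alternatives were scaling by the 75th percentile, quantiles taken within each fit, normexp (offset 50, on median signals), bright probes alone, a trended, robust prior, a joint fit of the 24 arrays, the joint fit with a slide term, a replicate block, the authors' log2 table, the mean of a gene's probes, the methods' t-test, and leaving out each array. The comparison of LeGO-GFP with siNEG and the values on single slides were added after the data were seen.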

Additional observations from a re-analysis of the deposited data

Results flagged for a closer look

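The difference between siPINC1.0/1.6 and siNEG was not the same in −LH and +LH cells for 4 of the 10 genes by the interaction term (limma). The interaction, the +LH difference minus the −LH difference on the log2 scale, was -2.17 for C3, -1.64 for Lcn2, -1.11 for Chi3l1 and -0.65 for Clu. For siPINC it was -1.11 for C3 and -0.57 for Clu. The mPINC probe, near background in +LH cells, did not show the knockdown there. Smaller differences in +LH cells therefore cannot be told apart from a weaker knockdown. Groups had 2 or 3 arrays, too few to test for a single outlying array. The −LH arrays lay on 1 slide and 8 of the 9 +LH siRNA arrays on another, and the part of the slide in these differences was not tested beyond the fit with a slide term, in which all 4 calls for siPINC1.0/1.6 were kept.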

How the results depend on the processing

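Among the 54 gene and comparison pairs called, 37 were called in every alternative, and the call was kept in 990 and lost in 128 of 1118 alternatives, with no sign turned. The counts out of 10 genes below follow each comparison's own count. With siPINC1.0/1.6 in −LH cells (4), 0 were called with the 75th percentile, the replicate block and the methods' t-test, 1 with the authors' table, 7 with bright probes or a trended prior, 8 with normexp, 9 in the joint fit of the 24 arrays, with a slide term or not, and 0 to 1 without 1 array. With siPINC (0) there were 1 with normexp, 2 with a trended prior and 4 in both joint fits, and for siPINC1.0/1.6 against siPINC (0) 2 with bright probes, 4 with a trended prior and 5 with normexp or in either joint fit. In +LH cells siPINC1.0/1.6 (6) gave 2 with the 75th percentile, 3 with the t-test, 4 with the replicate block and 3 to 6 without 1 array, the fewest without siPINC1.0/1.6 replicate 1 or 2. Here siPINC (2) gave 1 with the 75th percentile or the authors' table, 0 with the replicate block or the t-test and 1 to 2 without 1 array. For siPINC1.0/1.6 against siPINC (2) there was 1 with normexp or bright probes, 0 with the 75th percentile, the replicate block, the authors' table or the t-test, and 1 to 2 without 1 array. Hormones (7) gave 4 with the t-test. The siPINC interaction (2) gave 0 with the 75th percentile, the replicate block or the authors' table and 0 to 1 without 1 array. The cause of these moves was not tested. The lentivirus counts (9, 0 and 9), LeGO-GFP against siNEG (9) and the siPINC1.0/1.6 interaction (4) did not move by over 1.5 times, also with the replicate block. The t-test was not run for interactions. Scaling to the 75th percentile shifted the median of all probes with hormones to 0.19 (log2), from 0.01. Over all probes, counts ranged from 0 to 5761 for siPINC1.0/1.6 in −LH cells (1650), 0 to 902 for siPINC (0), 733 to 3904 (2140) and 1 to 1103 (379) for the same in +LH cells, 13617 to 18217 for LeGO-1.0/1.6 against LeGO-GFP (16857) and 8958 to 15901 for hormones (15115). Signal limits Saa2 and Saa3, which lay below the background mark in siNEG cells.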

Other observations

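In the comparison of LeGO-GFP with siNEG in +LH cells, 15.9% of all probes were called, 6.57% higher, and 41.2% of bright probes, 17.7% higher. Of the 38 other acute phase and secreted defence genes 18 were higher in LeGO-GFP cells and 0 lower (47.4%), with Orm1 at least 31.4-fold higher. Of the 34 cytokine signalling genes 20 were higher and 4 lower (70.6%), with Il6 at least 33.3-fold higher and the chemokine Cxcl5 15.5-fold higher (log2 3.95, SE 0.10). Of 23 complement genes 6 were higher and 2 lower, a share of 34.8% that is below that of bright probes. Among them were C4b at 10.0-fold and Serping1 at 9.33-fold higher, both of which were lower in LeGO-1.0/1.6 than in LeGO-GFP cells. Of 18 genes of the glucocorticoid, prolactin and STAT5 response 10 were lower and 4 higher, with Csn2 27.6-fold lower (log2 -4.79, SE 0.12). Of all probes 9.34% were called lower there, and of bright probes 23.5%. Virus, transfection, cell stock and experiment cannot be told apart here.

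By the methods' t-test at p under 0.01 and a fold over 1.4, 5 of the 10 genes were higher and 4 lower in LeGO-1.0/1.6 than in LeGO-GFP cells, against 4 and 2 at a fold over 1.8, and none were at either fold in LeGO-DCR cells. After Benjamini-Hochberg adjustment of this t-test 9 and 0 were called, respectively, where 13617 probes of the array were called for LeGO-1.0/1.6 against LeGO-GFP. In +LH cells 3 were higher and 2 lower with siPINC1.0/1.6 at a fold over 1.4, against 2 and 0 at 1.8. With siPINC 1 was higher and 1 lower at both. In −LH cells 1 was higher with siPINC1.0/1.6 at a fold over 1.4 and none at 1.8. The shares of all probes at these p and fold thresholds were not counted, so the counts at them are a description.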
